A study of Danio rerio with 6 samples.

Results

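Toll-like receptors are the innate immune receptors described here, and 10 of their genes were read out of the 32105 genes counted in zebrafish RNA-seq libraries: *tlr1*, *tlr2*, *tlr3*, *tlr5a*, *tlr7*, *tlr8b*, *tlr9*, *tlr18*, *tlr21* and *tlr22*. The family was selected on the fall of *tlr7* between these same libraries, so the difference in *tlr7* is given as a description, without a test, and nothing is read from the number of members called. The genotypes compared were fr105 mutant and wild type, with 3 individual fish each according to the methods. The mutants (replicates 1 to 3) were homozygous for *ikzf1* fr105, a CRISPR/Cas9 deletion inside the gene for Ikaros, a zinc finger transcription factor of blood cells; it removes exons that encode DNA-binding zinc fingers, and the truncated protein keeps only the first finger. The wild type (replicates 4 to 6) were siblings without the deletion. Both groups were labelled as whole bodies at 5 days post fertilisation (dpf) of mixed wild-type strain background. The mutants carry a single engineered allele in every tissue, so no cell type can be singled out by the design. The values are read counts per gene, with library totals between 34759504 and 38383935 in fr105 mutants and between 38177112 and 39404324 in wild type.

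Toll-like receptors recognise molecules of microbes. Those at the cell surface bind lipoproteins, flagellin and other envelope components, and those inside endosomes bind RNA or DNA. In humans the endosomal receptors Tlr7 and Tlr9 are used above all by B cells and plasmacytoid dendritic cells. Most signal through the adaptor Myd88 to NF-κB and interferon regulatory factors, while Tlr3 uses the adaptor Ticam1. Fish carry receptors that mammals lack, among them *tlr18*, *tlr21* and *tlr22*, and duplicates of others, such as *tlr5a* with *tlr5b* and *tlr8a* with *tlr8b*.

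The targeted gene was examined first. *ikzf1* had 53145, 44700 and 29104 counts in fr105 mutants, against 8746, 6776 and 10579 counts in wild type. All mutants had more counts than any wild-type fish, so this gene separated the labels, although the counts run over the whole gene and do not resolve the deleted exons. The labelled tissue was examined with defining markers. The 8 skeletal muscle symbols that could be matched, of 13 listed, summed to between 1.54 and 2.66 CPM (counts scaled to library size) in fr105 mutants and between 1.65 and 2.31 CPM in wild type, with *myhz1.2* and *myhz2* at 0 in every library. The lens genes *cryaa* and *crygm2d1* and the neuronal gene *elavl3* were also at 0 in every library, whereas 9 neutrophil genes summed to between 42540 and 56780 CPM in fr105 mutants and between 28200 and 41320 CPM in wild type. The 6 matched kidney tubule genes summed to between 122.7 and 225.2 CPM in fr105 mutants and between 115.8 and 229.7 CPM in wild type, most of it from *slc20a1a*, a phosphate transporter; the other 5 genes had between 2 and 364 counts. Muscle, lens and neuron markers of a whole larva were thus absent or nearly so while neutrophil genes were abundant and kidney tubule genes were detected; the tissue of origin was not established, and the libraries are named below by their genotype only.

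CPM values were computed after TMM scaling, which corrects for differences in composition between libraries. Differences were tested by the quasi-likelihood test of edgeR over 16630 genes that passed its low-count filter, and a gene was called when its Benjamini-Hochberg adjusted p was under 0.05; standard errors of log2 fold changes are marked SE. By this rule 19.8% of all genes tested were called, 11% as higher and 8.76% as lower in fr105 mutants, and the CPM of the groups did not overlap in 41.9% of all genes tested. Of the 10 receptor genes, 9 were tested. Leaving aside *tlr7*, 1 of the other 8 was called higher (*tlr22*), 2 were called lower (*tlr8b* and *tlr9*) and 5 were not called; the median of these 8 log2 fold changes was -0.29, beside a median of 0.00 over all genes tested. Since reads on a gene grow with its length and no transcript lengths of the build were at hand, levels are compared between genotypes and not between receptors. The shares and ratios of counts given below are not corrected for length either, so they too are read between genotypes only.

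**Figure D1:**
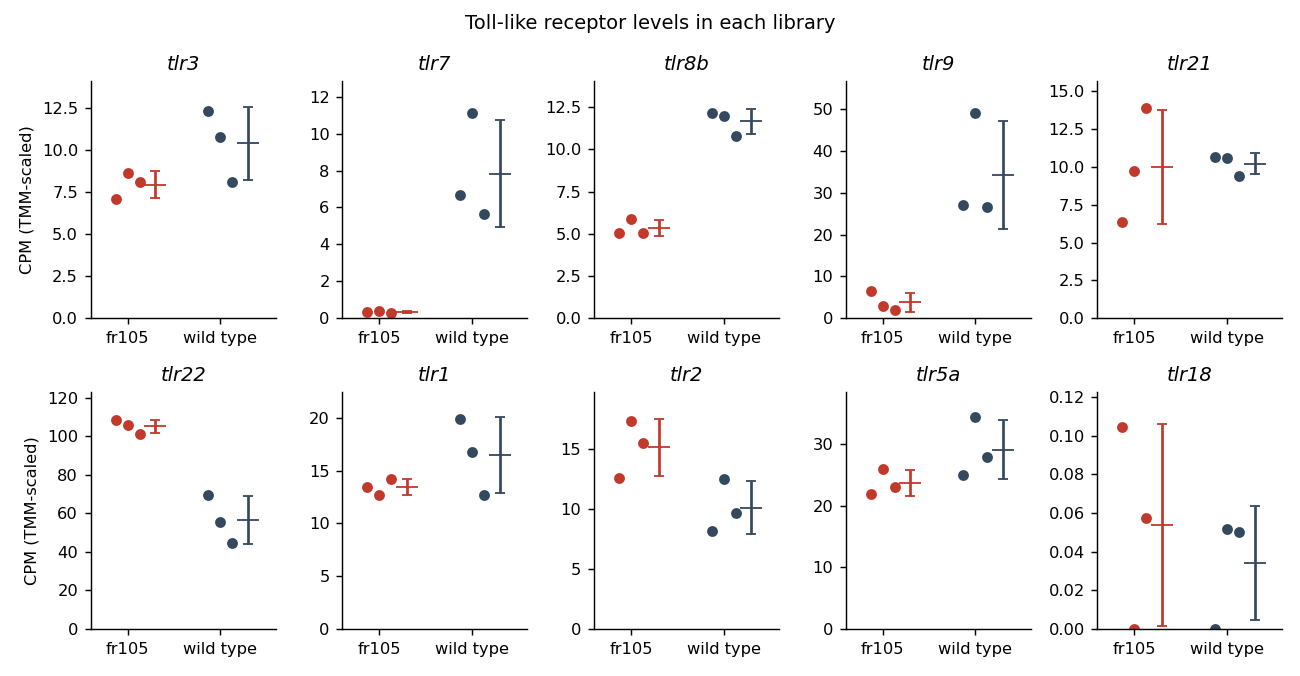
TMM-scaled CPM of each of the 10 receptor genes, one panel per gene with its own linear axis from 0; points are the 3 fr105 mutant libraries (red, left) and the 3 wild-type libraries (blue, right), and the bar beside them is the mean with the SD. The mutant points of *tlr7*, *tlr8b* and *tlr9* lie below all wild-type points, those of *tlr22* and *tlr2* lie above them, and *tlr18* stays near 0.

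Among the receptors for nucleic acids, *tlr7* (ENSDARG00000068812), in mammals a receptor for single-stranded RNA, was almost gone from the mutant libraries. It had 12, 14 and 10 counts in fr105 mutants, against 256, 429 and 227 counts in wild type. The mutant libraries were uniformly low, the wild-type libraries were more spread out with replicate 5 at the top, and the groups were far apart. The level was 0.33 ± 0.0534 CPM in fr105 mutants and 7.83 ± 2.91 CPM in wild type (SD, n = 3 each), so that 4.21% of the wild-type mean remained. The log2 fold change was -4.56 ± 0.34 (SE), which put *tlr7* at position 18 from the lowest of the 16630 genes tested. A low position follows from its selection on this fall and is a description only. In bulk RNA, fewer cells of a type and less RNA per cell cannot be told apart, and this holds for every value given here.

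*tlr9* (ENSDARG00000044490), a receptor for unmethylated CpG DNA, was also strongly reduced. It had 246, 106 and 72 counts in fr105 mutants, against 1038, 1893 and 1067 counts in wild type. Here the mutants were not uniform: replicate 1 stood well above the other two mutants, and replicate 5 stood above the other wild-type fish, yet the groups did not overlap. *tlr9* averaged 3.81 ± 2.31 CPM in fr105 mutants and 34.3 ± 12.9 CPM in wild type (SD, n = 3 each), an 11.1% remainder of the wild-type mean. The log2 fold change of *tlr9* was -3.16 ± 0.43 (SE; Benjamini-Hochberg adjusted p = 0.00206, quasi-likelihood test of edgeR). With each library left out in turn it lay between -3.77 and -2.81.

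*tlr8b* (ENSDARG00000073675) is one of the zebrafish copies of Tlr8, which in humans recognises single-stranded RNA. It had 193, 211 and 177 counts in fr105 mutants, against 466, 461 and 433 counts in wild type. Both groups were tight and did not overlap. The level was 5.32 ± 0.47 CPM in fr105 mutants and 11.6 ± 0.742 CPM in wild type (SD, n = 3 each), and the log2 fold change of -1.13 ± 0.14 (SE) passed edgeR's test (adjusted p = 0.00115).

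*tlr22* (ENSDARG00000104045), a fish receptor that in pufferfish binds long double-stranded RNA at the cell surface, went the other way. It had 4146, 3814 and 3543 counts in fr105 mutants, against 2671, 2142 and 1796 counts in wild type. The mutant libraries were close together and all lay above the wild-type libraries, which differed more among themselves. *tlr22* averaged 105 ± 3.51 CPM in fr105 mutants and 56.7 ± 12.5 CPM in wild type (SD, n = 3 each), with a log2 fold change of 0.89 ± 0.16 (SE; edgeR adjusted p = 0.00658). The macrophage gene *marco*, a scavenger receptor, and *csf1ra*, the receptor for colony-stimulating factor 1, were called higher. Their log2 fold changes were 1.42 and 0.62. The other 14 genes on the macrophage list were not called, while 11% of all genes tested were called higher and 8.76% lower. The 16 genes of this list carry 11 symbols, since several share the symbol *mfap4*. That list summed to between 2110 and 2245 CPM in fr105 mutants and between 1842 and 2133 CPM in wild type. Most of this sum came from *cd74a* (mean 878 CPM in fr105 mutants, 921 CPM in wild type) and *cd74b* (485 and 511 CPM). The paper finds both genes high in B cells as well, so the sum does not measure macrophages alone. The part of macrophages in the value of *tlr22* was not tested.

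The other nucleic acid receptors were not called. *tlr3* (ENSDARG00000016065), the receptor for double-stranded RNA, had 272, 311 and 282 counts in fr105 mutants, against 472, 414 and 324 counts in wild type. Wild-type replicate 6 came down to the mutants once scaled, so the groups overlapped, and the log2 fold change of -0.39 ± 0.18 (SE) did not pass (adjusted p = 0.167, edgeR). *tlr21* (ENSDARG00000058045), which in zebrafish recognises CpG DNA alongside Tlr9, had 244, 351 and 485 counts in fr105 mutants, against 408, 407 and 378 counts in wild type. The mean levels of *tlr21* were close, at 10 ± 3.76 CPM in fr105 mutants and 10.2 ± 0.686 CPM in wild type (SD, n = 3 each), but the mutant libraries fell on both sides of the wild-type libraries. The coefficient of variation of *tlr21* was 37.6% in fr105 mutants and 6.71% in wild type. The estimate for *tlr21* was a log2 fold change of -0.03 ± 0.26 (SE; edgeR adjusted p = 0.945), and it was 0.21 without mutant replicate 1. The 2 receptors for CpG DNA thus gave different values in the same fish: mutant replicate 1 was the highest mutant for *tlr9* and the lowest for *tlr21*.

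None of the receptors for lipopeptides and flagellin, nor *tlr18*, was called. *tlr2* (ENSDARG00000037758), which in mammals pairs with Tlr1 to bind lipopeptides, had 484, 623 and 542 counts in fr105 mutants, against 313, 483 and 387 counts in wild type. Scaled to CPM, the lowest mutant (12.6 CPM) was just above the highest wild type (12.5 CPM). The log2 fold change of *tlr2* was 0.58 ± 0.19 (SE; edgeR adjusted p = 0.0659); it passed with DESeq2 (adjusted p = 0.0315) and without wild-type replicate 5 (adjusted p = 0.0344). *tlr1* (ENSDARG00000100649) had 515, 457 and 497 counts in fr105 mutants, against 762, 644 and 510 counts in wild type, and the groups overlapped in CPM (log2 fold change -0.29 ± 0.17, SE; edgeR adjusted p = 0.256). *tlr5a* (ENSDARG00000044415), a receptor for bacterial flagellin, had 840, 938 and 809 counts in fr105 mutants, against 956, 1326 and 1122 counts in wild type; the groups overlapped in CPM (log2 fold change -0.30 ± 0.14, SE; edgeR adjusted p = 0.17). *tlr18* (ENSDARG00000040249), a fish receptor related to Tlr1, was near the limit of detection, with 4, 0 and 2 counts in fr105 mutants and 0, 2 and 2 counts in wild type. It did not pass the low-count filter, and no fold change is given for it.

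**Figure D2:**
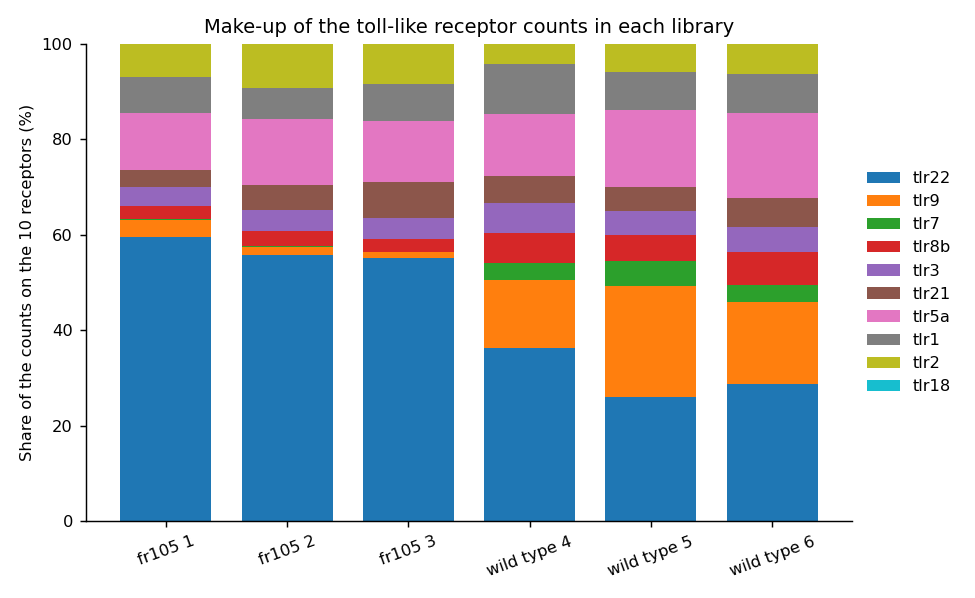
Share (%) of the counts on the 10 receptors that fell on each of them, as stacked bars from 0 to 100 for the 3 fr105 mutant libraries (left) and the 3 wild-type libraries (right). *tlr22* took 56.9% on average in fr105 mutants and 30.4% in wild type, and *tlr9* took 2.07% in fr105 mutants and 18.1% in wild type.

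The 10 receptor genes together took about the same amount of reads in both genotypes, while their make-up differed. Their sum holds a higher *tlr22* beside a lower *tlr9* in mutants. It leaves out other receptor genes, such as *tlr5b* (mean 34.5 CPM in fr105 mutants, 43.3 CPM in wild type) and *tlr8a* (13 and 6.21 CPM). Summed over the 10 genes, the level was 185 ± 4.22 CPM in fr105 mutants and 187 ± 28.9 CPM in wild type (SD, n = 3 each). Of these counts, *tlr22* took 56.9% ± 2.37 in fr105 mutants and 30.4% ± 5.33 in wild type. *tlr9* took 2.07% ± 1.29 in fr105 mutants and 18.1% ± 4.56 in wild type. *tlr8b* took 2.87% ± 0.188 in fr105 mutants and 6.3% ± 0.657 in wild type, and *tlr7* took 0.178% ± 0.0251 in fr105 mutants and 4.12% ± 0.967 in wild type (SD over 3 libraries each). The shares of these 4 receptors did not overlap between the genotypes, and neither did those of *tlr1*, *tlr2* and *tlr3*. Those of *tlr5a*, *tlr18* and *tlr21* did. In CPM, however, the groups of *tlr1* and *tlr3* overlapped. Among all genes tested, the CPM of the groups did not overlap in 41.9%. No such figure was computed for shares, so nothing is read from how many separated. Shares of this kind sum to 100% in each library, so a lower share of one receptor raises those of the others, and a higher share lowers them.

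Every other gene with a symbol beginning with tlr was then read from the same fit. There were 9 such genes, 6 of which passed the low-count filter. Of these, 2 were called higher, 1 was called lower and 3 were not called, while 11% of all genes tested were called higher and 8.76% lower. *tlr8a* had its symbol only from a supplementary table that lists changed genes, so it may have entered this set through its change. Receptor genes without a symbol may be missed, and nothing is read from this count. The second Tlr8 copy, *tlr8a* (ENSDARG00000090119), had 429, 457 and 532 counts in fr105 mutants, against 268, 239 and 217 counts in wild type. All mutant libraries were above all wild-type libraries. *tlr8a* averaged 13 ± 2.03 CPM in fr105 mutants and 6.21 ± 0.795 CPM in wild type (SD, n = 3 each), with a log2 fold change of 1.07 ± 0.17 (SE; edgeR adjusted p = 0.00391).

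The Tlr8 copies thus changed in opposite directions. The count of *tlr8b* divided by that of *tlr8a* was 0.45, 0.462 and 0.333 in fr105 mutants, against 1.74, 1.93 and 1.99 in wild type. The ratio was lower in each mutant than in each wild-type fish. This ratio was looked at after the values of both genes had been seen, and reads shared between such copies may be split differently by other ways of counting. For the flagellin receptors, the count of *tlr5a* divided by that of *tlr5b* was 0.579, 0.743 and 0.759 in fr105 mutants and 0.641, 0.731 and 0.638 in wild type, so these neighbouring copies kept overlapping ratios. *tlr5b* (ENSDARG00000052322) had a log2 fold change of -0.33 ± 0.12 (SE; edgeR adjusted p = 0.0896) with no overlap between the groups.

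Of the remaining receptor genes, *tlr19.1* (ENSDARG00000026663), a receptor found in fish, had 63, 38 and 16 counts in fr105 mutants, against 116, 156 and 125 counts in wild type. All mutants were below all wild types, and the log2 fold change was -1.68 ± 0.41 (SE; edgeR adjusted p = 0.0265); it did not pass without mutant replicate 2 (adjusted p = 0.067) or wild-type replicate 5 (adjusted p = 0.0788). Its relative *tlr19.2* had 50, 50 and 11 counts in fr105 mutants and 65, 49 and 74 counts in wild type and was not called (log2 fold change -0.67 ± 0.50, SE; edgeR adjusted p = 0.37). *tlr4bb* (ENSDARG00000022048), related to the mammalian receptor for lipopolysaccharide, had 377, 204 and 387 counts in fr105 mutants, against 214, 169 and 179 counts in wild type. The log2 fold change of *tlr4bb* was 0.88 ± 0.26 (SE; edgeR adjusted p = 0.0466), and the call was lost without mutant replicate 1 or 3 or any one wild-type fish and with upper quartile or library size scaling, with adjusted p between 0.0511 and 0.147. *tlr4ba*, which lies close to *tlr4bb* in the gene order of the GRCz12tu assembly, had a log2 fold change of -0.13 ± 0.36 (SE; edgeR adjusted p = 0.819), and of 0.18 without mutant replicate 1. *tlr4al*, *tlr20.2* and *tlr20.4* had between 0 and 9 counts in every library and were not tested.

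**Figure D3:**
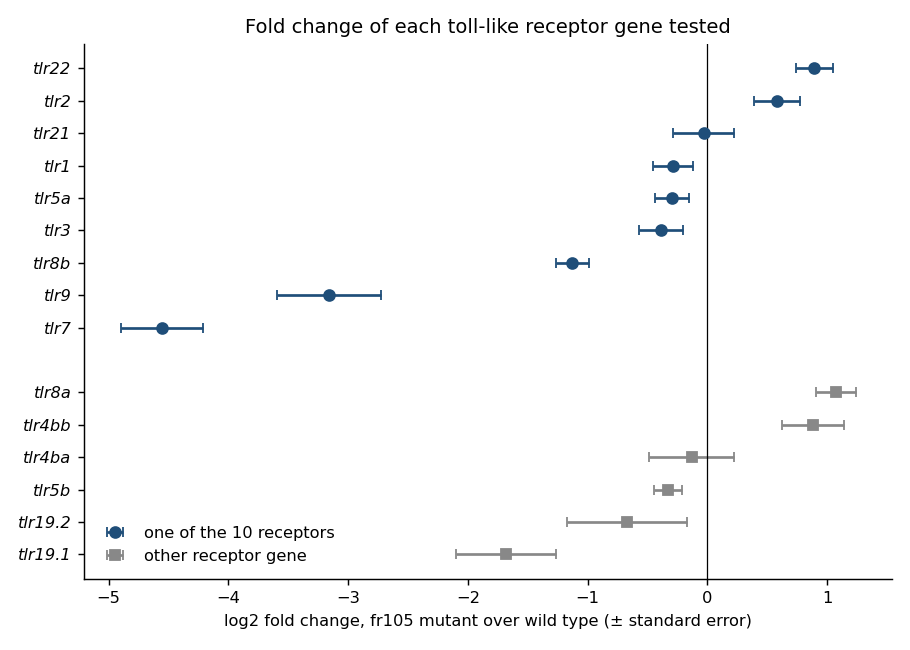
Log2 fold change of fr105 mutant over wild type, with the standard error as bars, for the 9 receptors tested (circles) and the 6 other receptor genes tested (squares); points left of the line at 0 are lower in the mutants. *tlr7* is at -4.56 and *tlr9* at -3.16, and the Tlr8 copies *tlr8b* and *tlr8a* stand at -1.13 and 1.07.

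The receptors were set beside markers of B cells and dendritic cells, named above for Tlr7 and Tlr9 in humans, and of other blood cells. Among all genes tested, 8.76% were called lower and 11% higher. Of 13 B cell genes, 10 were called lower and none higher, with a median of -2.15 on the log2 scale. *blnk* (-0.36), *btk* (-0.27) and *cd22* (0.04) were not called. The list summed to between 310.9 and 390.1 CPM in fr105 mutants and between 671.1 and 1067 CPM in wild type. Of 8 dendritic cell genes, 5 were called lower and none higher, with a median of -0.98. *flt3* (-0.67), *id2a* (0.12) and *spi1b* (0.22) were not called. The 8 genes summed to between 555.9 and 671.1 CPM in fr105 mutants and between 690.4 and 801.3 CPM in wild type. The largest part of this sum was *spi1b*, with a mean of 452 CPM in fr105 mutants and 387 CPM in wild type. The sum therefore says little of the other genes on the list. Other lists moved too. Of 10 T cell genes, 4 were called lower and 1 (*itk*) higher. Their sum was between 171.3 and 230.9 CPM in fr105 mutants and between 277.4 and 308.2 CPM in wild type. Most of it came from *ccr9a*, with a mean of 115 CPM in fr105 mutants and 253 CPM in wild type. The paper lists *ccr9a* for B cells as well. *itk* averaged 57.6 CPM in fr105 mutants and 9.36 CPM in wild type, so the sum does not give the direction of the other T cell genes. Of 5 thrombocyte genes, 3 were called higher. Their sum was between 198.7 and 281.2 CPM in fr105 mutants and between 57.19 and 135.9 CPM in wild type. No gene of these 4 lists was at 0 in all libraries. Of 8 erythroid genes, 3 were called higher, none was called lower and 5 were not called, with a median of 0.77. *cd79b*, a chain of the B cell receptor complex, had 191, 115 and 69 counts in fr105 mutants, against 848, 1834 and 1480 counts in wild type, and *irf8*, a transcription factor of dendritic cells, macrophages and B cells, had 1462, 1186 and 1216 counts in fr105 mutants, against 2941, 3567 and 3516 counts in wild type. The part of these cells in the values of the receptors was not tested.

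Each receptor was also set against single markers by dividing its count by that of the marker in the same library. For *tlr7* such a ratio is largely fixed by its selection on this fall, so no count of markers is given for it. The ratio of *tlr9* to the marker was lower in all mutant libraries than in any wild-type library for 8 of 13 B cell genes and 7 of 8 dendritic cell genes. For the B cell genes *cd79b*, *cd37*, *cxcr5*, *pou2af1* and *swap70a* the ratios overlapped. With *tlr9* at 11.1% of its wild-type mean, its ratio to a gene that fell less tends to be lower in mutants. These counts therefore largely restate the fall of *tlr9*. The count of *tlr9* over that of *cd79b* was 1.29, 0.922 and 1.04 in fr105 mutants and 1.22, 1.03 and 0.721 in wild type, so these ratios overlapped. *cd79b* was at 9.52% of its wild-type mean, so the overlap restates that both genes fell by a similar factor. The part of B cells in it was not tested. For *tlr7* over *cd79b* the values were 0.0628, 0.122 and 0.145 in fr105 mutants, against 0.302, 0.234 and 0.153 in wild type, with the closest libraries almost touching. *tlr8b* was higher in mutants relative to 7 of 13 B cell genes, lower relative to 2 and overlapping for 4, and for 8 dendritic cell genes it was lower relative to 3 and overlapping for 5. *tlr22* was higher relative to 12 of 13 B cell genes and 8 of 8 dendritic cell genes, which largely restates its own rise and the fall of most of these markers. The share of all genes with such ratios was not computed for any receptor. No count of ratios is therefore read as a result about the markers.

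The order of the libraries within each genotype is given as a description only. The share of all genes with a given order was not computed, so no count of this kind is read as a result about these genes. Mutant replicate 1 was the highest mutant for 7 of 13 B cell genes, 4 of 8 dendritic cell genes and 4 of the 15 receptor genes tested. Wild-type replicate 5 was the highest wild-type library for 10, 4 and 6 of these. *tlr9*, *tlr5b* and *tlr19.1* were the receptor genes highest in both of these libraries. *tlr7* was highest in mutant replicate 2, where it had 14 counts, and in wild-type replicate 5, and *tlr8b* was highest in mutant replicate 2 and wild-type replicate 4.

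**Figure D4:**
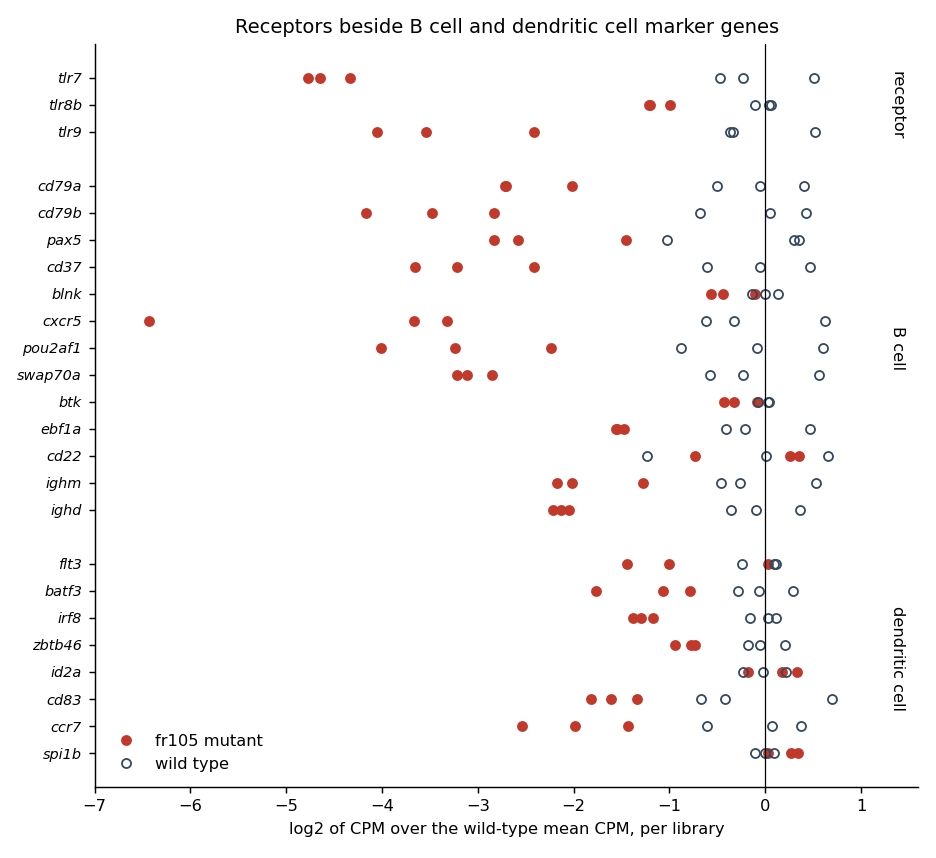
Log2 of the CPM of each library over the mean CPM of wild type, for *tlr7*, *tlr8b*, *tlr9*, the 13 B cell genes and the 8 dendritic cell genes; filled red points are fr105 mutant libraries and open points wild-type libraries, and the line at 0 is the wild-type mean. The mutant points of *tlr9* lie near those of *cd79b*, *cd37* and *pou2af1*, and those of *tlr7* lie further left than most markers, with *cxcr5* in mutant replicate 3 (2 counts) furthest.

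The 5 genes whose profile over the 6 libraries was most like that of *tlr7*, among 12031 genes with a mean of at least 100 counts and *tlr7* itself as the pattern, were *maptb*, *aff3*, *zgc:158868*, *rag1* and *si:dkey-265j8.1*. Likeness was the root mean square difference between centred log2 CPM profiles, which was 0.35, 0.53, 0.57, 0.62 and 0.63 for these genes in that order. *maptb*, a relative of the gene for the microtubule-associated protein tau, had 74, 58 and 37 counts in fr105 mutants, against 1123, 1651 and 1579 counts in wild type. *rag1*, part of the recombinase that assembles antigen receptor genes in B and T cells, had 59, 134 and 36 counts in fr105 mutants, against 1071, 944 and 1121 counts in wild type. *aff3*, in mammals a nuclear protein of lymphoid cells, had 10, 6 and 15 counts in fr105 mutants, against 270, 348 and 154 counts in wild type. In this order *tlr9* stood at position 14 with a difference of 0.77 and *tlr8b* at position 300 with 1.69. The likeness rests mainly on the gap between the genotypes, which chose *tlr7*, and is a description only.

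**Figure D5:**
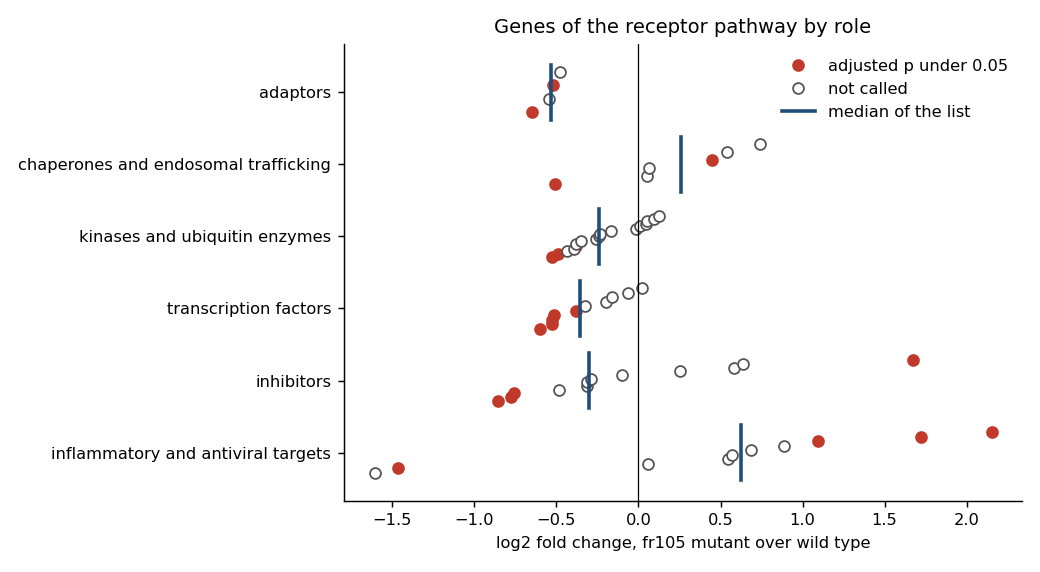
Log2 fold change of fr105 mutant over wild type for the 59 tested genes of the receptor pathway, by role; filled points passed an adjusted p of 0.05 (edgeR's quasi-likelihood test), open points did not, and the vertical bar is the median of each list. The adaptors and most transcription factors lie left of 0, and *cxcl8a*, *isg15* and *nfkbib* are the 3 points furthest to the right.

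The rest of the pathway was read from 6 lists by role, with 59 genes tested in all. Of these, 5 were called higher and 15 lower, with a median log2 fold change of -0.24; among all genes tested, 11% were called higher and 8.76% lower. No count within a single list is read as a result about that list. Among 4 adaptors tested, 2 were called lower. *myd88*, the common adaptor, had 922, 923 and 754 counts in fr105 mutants, against 1551, 1447 and 1351 counts in wild type, with no overlap and a log2 fold change of -0.65 ± 0.11 (SE; edgeR adjusted p = 0.00666). *pik3ap1*, an adaptor to phosphoinositide 3-kinase that is also used by the B cell receptor, had a log2 fold change of -0.52 ± 0.09 (SE; edgeR adjusted p = 0.00712). *ticam1*, the adaptor of Tlr3, was at -0.54 (adjusted p = 0.0503, edgeR) and passed under 6 of 14 alternatives, among them DESeq2 (adjusted p = 0.0219) and upper quartile scaling (adjusted p = 0.0359), while *tirap*, a bridging adaptor to Myd88, was at -0.48 (adjusted p = 0.103, edgeR). *sarm1*, an adaptor that in mammals dampens signalling, had between 2 and 14 counts in every library and was not tested.

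Of 6 genes for chaperones and endosomal trafficking, 1 was called lower and 1 higher, while 8.76% of all genes tested were called lower and 11% higher. *unc93b1*, which carries the nucleic acid receptors to endosomes, had 2238, 2333 and 2333 counts in fr105 mutants, against 3177, 4107 and 3260 counts in wild type. Its groups did not overlap, and its log2 fold change was -0.51 ± 0.13 (SE; edgeR adjusted p = 0.0283), but the call was lost without any one mutant or without wild-type replicate 5 (adjusted p up to 0.104). *lrrc59*, which in mammals helps Unc93b1 at the endoplasmic reticulum, was at 0.45 (adjusted p = 0.0452, edgeR), a call that upper quartile scaling and the omission of 5 of the 6 libraries removed, with adjusted p up to 0.129. The chaperones *hsp90b1* and *cnpy3*, needed for receptor folding, were at 0.74 and 0.05, the related *cnpy4* at 0.54, and the endosomal transporter *slc15a4* at 0.06, and none of these 4 was called (adjusted p between 0.115 and 0.808, edgeR), although *hsp90b1* passed with DESeq2 (adjusted p = 0.0403) and without wild-type replicate 6 (adjusted p = 0.0344).

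Of 17 kinases and ubiquitin enzymes, 3 were called lower and none higher: *ikbke* at -0.53 and *ikbkb* at -0.49, both of the IκB kinase family, and *tab1*, a partner of the kinase Tak1, at -0.38 (adjusted p between 0.0124 and 0.0294, edgeR). Over all genes tested, 8.76% were called lower and 11% higher. Of 10 transcription factors, 5 were called lower and none higher. These were the NF-κB genes *nfkb2* (-0.60), *nfkb1* (-0.53) and *rel* (-0.52) and the interferon regulatory factors *irf7* (-0.53) and *irf5* (-0.38), with adjusted p between 0.00928 and 0.0285 in edgeR's test; *irf5* was added as the only other call on its list. Leaving out 1 library ended the call of *ikbke*, *ikbkb*, *tab1*, *nfkb2*, *irf7* and *rel* in at least 1 case each (adjusted p up to 0.109), and not that of *nfkb1*.

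The inhibitors of the pathway did not change in one direction. Of 12 tested, 1 was called higher and 3 lower, with a median of -0.30. Over all genes tested, 11% were called higher and 8.76% lower. *nfkbib*, an inhibitor that holds NF-κB in the cytoplasm, had 1603, 1696 and 1400 counts in fr105 mutants, against 560, 476 and 538 counts in wild type. Both groups were tight and far apart, and the log2 fold change was 1.68 ± 0.11 (SE; edgeR adjusted p = 7.05e-05). *tnfaip3* (-0.85), a ubiquitin-editing enzyme that ends NF-κB signalling, *tnip2* (-0.78), which binds it, and *irak3* (-0.76), an inhibitory member of the Irak family, were lower, with adjusted p of 0.00739, 0.00659 and 0.0245 in edgeR's test; the call of *irak3* was lost without mutant replicate 2 (adjusted p = 0.0632) or 3 (adjusted p = 0.0915).

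Among the genes that the pathway induces, 10 were tested, 3 were called higher and 1 lower, with a median of 0.63. Over all genes tested, 11% were called higher and 8.76% lower. *cxcl8a*, a chemokine that attracts neutrophils, had 205, 107 and 115 counts in fr105 mutants, against 36, 20 and 46 counts in wild type (log2 fold change 2.15 ± 0.37, SE; edgeR adjusted p = 0.00591). *isg15*, an interferon-induced ubiquitin-like protein, had 2694, 1840 and 1398 counts in fr105 mutants, against 610, 517 and 787 counts in wild type (log2 fold change 1.72 ± 0.22, SE; edgeR adjusted p = 0.00162). For both genes the groups did not overlap, and mutant replicate 1 was the highest library. *il10*, an anti-inflammatory cytokine, had 45, 43 and 36 counts in fr105 mutants, against 94, 158 and 115 counts in wild type (log2 fold change -1.47 ± 0.27, SE; edgeR adjusted p = 0.00823). *mxa*, an interferon-induced antiviral GTPase, was at 1.1 ± 0.30 (SE; edgeR adjusted p = 0.0374), a call lost without mutant replicate 1 or 3 or wild-type replicate 4 or 5 (adjusted p up to 0.116). The neutrophil list named above had a higher sum in every mutant library than in every wild-type library, but the closest libraries were at 42540 and 41320 CPM. The largest part of this sum was *lyz*, with a mean of 20001 CPM in fr105 mutants and 13935 CPM in wild type, which was not called. Among the 9 genes, *mpx*, the neutrophil myeloperoxidase, was called higher. *csf3r*, the receptor for granulocyte colony-stimulating factor, was called lower, and 7 were not called. The part of neutrophils in these values was not tested.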

How the data were processed

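Poly-A RNA of 3 fr105 mutants and 3 wild-type siblings was sequenced in paired-end mode from stranded libraries. Alignment by the authors used STAR (2.5.2b-1, per the labels) with the GRCz10 genome and reads were counted per gene with featureCounts (1.6.0.1); the deposited values are raw counts, not normalized. The strand setting is not given in the sources used here, and both mates of a pair appear to be counted, since 78.0% to 79.9% of counts from 1 to 4 were even. No libraries were alike within sampling noise (chi-square per gene of at least 48.8).

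Counts were scaled by TMM, filtered with filterByExpr (minimum count 10, total 15) and tested with edgeR 4.0.16 (R 4.3.3; quasi-likelihood F test, two-sided, Benjamini-Hochberg over 16630 genes). SE is the absolute log2 fold change over the square root of F. An exact permutation test of 3 against 3 cannot give a two-sided p below 0.1. Alternatives were DESeq2 1.42.0, scaling by library size, RLE or upper quartile, other low-count filters, a robust fit, halved counts, stricter thresholds and each library left out in turn.

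Members and lists were chosen with earlier results of these data known. Genes named were all members, other tlr genes passing the filter, up to 4 called genes with the largest change per role list, all adaptor and trafficking genes, the 5 genes most like *tlr7* (0.5 added to counts) and *ikzf1*. Marker genes and *irf5* were named besides this rule, after their values were seen. Symbols paired 26361 of 32105 genes; *tlr8a* had its symbol only from a supplementary table of the study that lists changed genes. Sequences, transcript lengths, promoter motifs and protein identity were not analysed here.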

Additional observations from a re-analysis of the deposited data

How the results depend on the processing

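No paired analysis was possible because mutant libraries are numbered 1 to 3 and wild-type libraries 4 to 6, so the groups share no number. The calls of *tlr8b*, *tlr9*, *tlr22*, *tlr8a* and *myd88* held under all 14 alternatives run on their fold changes. The direction of *tlr7* was set by its selection on this fall. Its value lay between -4.60 and -4.54 with all libraries and between -4.74 and -4.21 with 1 left out. Receptors called, other than *tlr7*, numbered 3, and between 2 and 4 under the alternatives. Among all genes tested 3291 were called, 1399 at an adjusted p of 0.01, 1810 with a change of at least 1 on the log2 scale and between 1927 and 2837 with 1 library left out. The other receptor genes called were 3, then 1 at 0.01 and between 1 and 2 with 1 library left out, and the pathway genes 20, then 9 at 0.01, 5 with the fold threshold (4 higher and 1 lower, beside 5 higher and 15 lower without it) and between 10 and 21 with 1 library left out. DESeq2 called more, with 4327 of all genes and 29 pathway genes (9 higher and 20 lower), and upper quartile scaling called 25 pathway genes. The libraries that moved such a count by over 1.5 times were mutant replicate 1 (1938 of all genes, 12 pathway genes), mutant replicate 3 (1927 and 10) and wild-type replicate 5 (2152 and 13, and 1 other receptor gene). Values not called that changed sign with 1 library left out were those of *tlr21* (-0.34 to 0.21), *tlr4ba* (-0.36 to 0.18), *cnpy3* (-0.054 to 0.12) and *slc15a4* (-0.036 to 0.18); the cause was not tested. Scaling moved the median of all genes by at most 0.05 and the share of calls that were higher to between 47.8% and 56.3%, beside 55.7% with TMM. *tlr18*, *tlr4al*, *tlr20.2*, *tlr20.4* and *sarm1* did not pass the low-count filter. Muscle, lens and neuron markers were at or near 0 in every library while neutrophil genes were abundant, so the label of whole larvae at 5 dpf is in doubt. Kidney tubule genes were detected as well, which does not decide the label. Which cells the receptors came from cannot be told from these counts.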
